A study of Mus musculus with 6 samples.

Results

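Sites of thyroid hormone receptor β1 (TRβ1) were examined that had a peak in hypothyroid mouse liver and no peak midpoint within 10 kb after thyroid hormone. They were the peaks of the TRb PTU list on chromosomes 1 to 19 whose midpoint lay more than 10 kb from every peak midpoint of the TRb T3 list. The rule gave 9775 isolated PTU-only sites out of 51297 TRb PTU peaks on these chromosomes, which is 19.1% of them. The sites were thus chosen by measured values, the positions of the peak calls of both hormone states, so their number and their distance from TRb T3 peaks are descriptions and were not tested. The peak score, a value of the authors' peak caller that ranks peaks within a list, was not used to choose them.

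The data are streptavidin pull-downs of chromatin (ChIP-seq) from livers of heterozygous BirA mice aged 9 to 10 weeks, kept on a diet with propylthiouracil (PTU), a blocker of thyroid hormone synthesis, for 3 weeks. BirA is a bacterial ligase that attaches biotin to a tagged protein. An adenovirus given by the tail vein carried GFP and biotinylated TRβ1 in the TRb PTU and TRb T3 groups and only GFP in the GFP PTU group, and 4 days of intraperitoneal injections followed, with saline in both PTU groups and with triiodothyronine (T3) in TRb T3. Each of the 3 ChIP groups and each of the 3 matching inputs is 1 library. All groups thus share BirA, the adenovirus and the PTU diet, and the receptor mapped is a virally delivered, tagged one. What drives BirA in these mice and how many animals went into a library are not given in the labels. With 1 library per group no difference could be set against the spread between animals. Intervals below are exact 95% binomial intervals (for medians, from order statistics), which treat peaks as independent and cover counting error only. Read depth is unknown, so more peaks in a list and deeper sequencing cannot be told apart. Coordinates are on mm9 and stand without gene names or sequence, since no reference of that build was at hand, and for the same reason the liver label was not checked against marker genes.

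TRβ1 is a nuclear receptor of hepatocytes that binds DNA mostly together with RXR, its usual partner, at repeated copies of a short motif. Unlike steroid receptors it can sit on chromatin without its hormone. Without T3 it is known to recruit the NCoR and SMRT corepressors and the deacetylase HDAC3, and T3 exchanges these for coactivators. Sites with a peak call in a single hormone state are therefore of interest for how the hormone affects where the receptor binds. A missing call is not the same as missing binding, and reads of TRb T3 at these sites were not examined.

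The name isolated holds toward the other hormone state only. The rule left no room for overlap, since the widest site was 1392 bp and the widest TRb T3 peak 4658 bp. Thus 0 of the 9775 sites overlapped a TRb T3 peak. These sites had a median distance to the nearest TRb T3 midpoint of 26124 bp (quartiles 15710 and 49986 bp). They made up 41.3% (interval 40.7 to 42.0%) of the 23648 TRb PTU peaks without an overlapping TRb T3 peak. The distance limit did not fall in a gap of the data. Of the TRb PTU peaks, 25298 (49.3%) had a TRb T3 midpoint within 100 bp. On a log scale of distance a second, broad mode lay farther out, and the limit cuts through the middle of it. There were 3574 peaks at 5 to 10 kb and 3654 at 10 to 20 kb, a wider band. Per kb of distance the peaks thinned out from band to band, with 6088 already at 0.1 to 1 kb and 6562 at 1 to 5 kb.

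**Figure D1:**
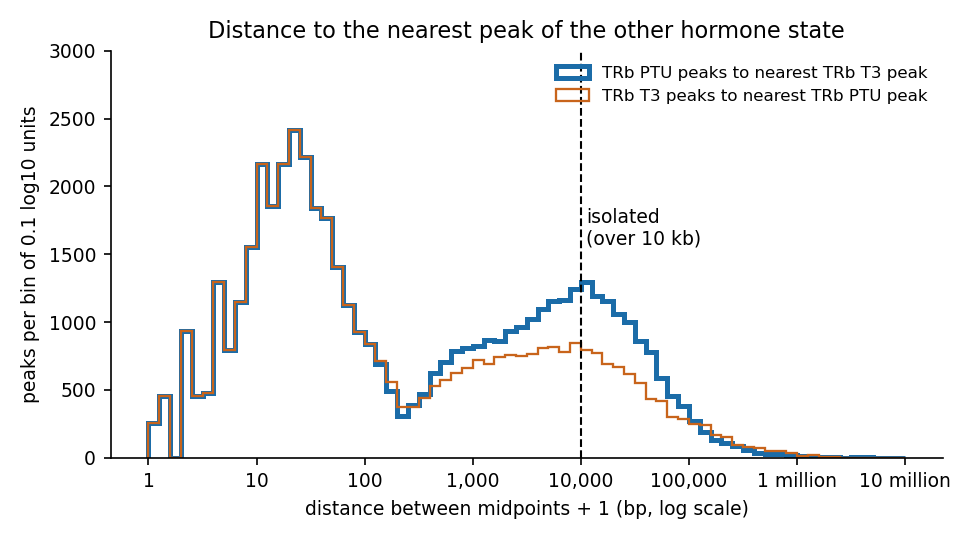
Histogram of the distance from each peak on chromosomes 1 to 19 to the nearest peak midpoint of the other hormone state (log axis, bp), for TRb PTU (blue) and TRb T3 (orange) peaks. On this log axis both lists have one mode below 100 bp and another near the dashed 10 kb limit, with no dip at the limit.

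Score and width did not change abruptly at the limit. The 5 sites nearest above it, at 10002 to 10006 bp, were chr8:87560588-87560751 (score 10.24), chr5:134924036-134924219 (16.64), chr12:76694884-76695113 (31.40), chr19:41903505-41903689 (91.28) and chr2:142455788-142455951 (16.94). The 5 TRb PTU peaks nearest below it, at 9988 to 9999 bp, had scores of 6.32, 57.17, 7.54, 16.52 and 3.42. Over more peaks, the median score was 12.89 (interval 12.64 to 13.33) at 10 to 20 kb and 13.26 (interval 12.89 to 13.73) at 5 to 10 kb, with median widths of 184 and 185 bp.

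Isolated PTU-only sites were mostly weak and narrow peaks. Their median score was 12.78 (interval 12.46 to 12.89, quartiles 8.57 and 21.22), against 22.30 (interval 21.85 to 22.68) for the other 41522 TRb PTU peaks. Their median width was 182 bp (interval 181 to 184) against 219 bp (interval 218 to 220). Only 460 of them (4.71%) were 400 bp or wider, against 12.5% of the other peaks. Together they covered 2081 of the 12895 kb under TRb PTU peaks, or 16.1%.

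Other TRb PTU peaks without an overlapping TRb T3 peak had similarly low scores at every distance. TRb PTU peaks that overlapped no TRb T3 peak but had a midpoint 1 to 10 kb away, 10136 in number, had a median score of 12.89 (interval 12.83 to 13.10) and a median width of 185 bp. Those within 1 kb, 3737 in number, had a median score of 11.69 (interval 11.26 to 11.95). Overlapped peaks stood at 32.28 (interval 31.86 to 32.99) and 240 bp. Among the isolated sites themselves, score hardly varied with distance (Spearman correlation across sites -0.03, all from 1 library). The median score was 12.62 at 20 to 50 kb, 12.44 at 50 to 100 kb and 12.14 at 100 to 500 kb, with 3679, 1434 and 887 sites in these bands. Only 121 sites lay farther out.

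The share of TRb PTU peaks that were isolated fell with score. In the lowest score decile 1541 of 5129 peaks were isolated (30.0%, interval 28.8 to 31.3%), in the fifth decile 22.3%, and in the highest decile 127 of 5130 (2.48%, interval 2.07 to 2.94%). Of the 3964 TRb PTU peaks with a score of 100 or more, 66 were isolated (1.66%, interval 1.29 to 2.11%). At 200 or more it was 3 of 757 (0.396%, interval 0.0818 to 1.15%). The share in the highest decile depended on the rule, at 3.84% with a distance of 5 kb, 1.68% with 20 kb, 0.565% with 50 kb and 7.54% when only TRb T3 peaks at or above their median score counted as neighbours.

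The opposite set, TRb T3 peaks more than 10 kb from every TRb PTU midpoint, held 6783 of 45406 TRb T3 peaks, which is 14.9%. These isolated T3-only sites were also weaker and narrower than the rest of their list. Their median score was 15.94 against 23.92 for the other TRb T3 peaks, and their median width 172 against 198 bp. Low score and small width are thus not particular to isolated PTU-only sites. The isolated share went from 21.8% (interval 20.6 to 23.0%) in the lowest TRb T3 decile to 4.62% (interval 4.03 to 5.28%) in the highest. With the TRb PTU list cut to the number of TRb T3 peaks and the deciles taken again, a setting added after seeing the data, the shares ran from 29.5 to 1.89% in TRb PTU and from 24.7 to 5.33% in TRb T3. The rule fixes which peaks are isolated and each state is 1 library, so the 2 courses are given side by side as a description.

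**Figure D2:**
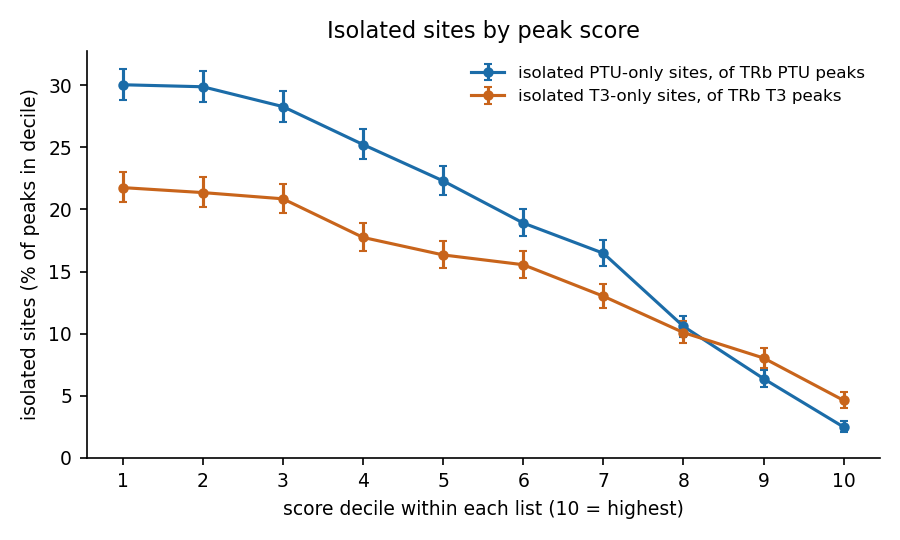
Share of peaks that are isolated (percent, with exact 95% intervals) in each score decile of its own list, for TRb PTU (blue) and TRb T3 (orange). The TRb PTU share falls from 30.0 to 2.48% and the TRb T3 share from 21.8 to 4.62%, and the lines cross between the eighth and the ninth decile.

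The excess of isolated PTU-only over isolated T3-only sites was 1.44 to 1 (interval 1.40 to 1.49). It depended on the distance and on how many peaks each list held. With the full lists the ratio was 1.36 at a distance of 20 kb and 1.09 at 50 kb. When the TRb PTU list was cut to its 45406 highest-scored peaks, as many as TRb T3 had, 7979 isolated PTU-only and 7621 isolated T3-only sites were left, a ratio of 1.05 (interval 1.01 to 1.08). With the 10000 highest-scored peaks of each list the numbers were 3313 and 3238, and the interval of the ratio (0.974 to 1.07) included 1. With 20000 peaks of each list the interval was 0.999 to 1.08. With 30000 and with 40000 it was 1.01 to 1.08 and did not include 1. With 10000 peaks, isolated sites were 33.1% of the TRb PTU and 32.4% of the TRb T3 list, against 19.1 and 14.9% as reported. With 40000 peaks they were 18.5 and 17.8%. Taking weak peaks out of one state can leave peaks of the other without a neighbour. It also removes the low-scored peaks, which were more often isolated.

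The 10 highest-scored isolated sites had scores from 149.47 to 246.97, at percentiles 96.8 to 99.3 of all TRb PTU peaks on these chromosomes. The first was chr19:42317111-42317391 (score 246.97, 281 bp), 90619 bp from the nearest TRb T3 midpoint and 25845 bp from the nearest other TRb PTU midpoint. The second, chr9:20365499-20365831 (244.18, 333 bp), had its nearest TRb T3 peak at 15798 bp. The third, chr6:89247291-89247650 (226.34, 360 bp), lay at 10553 bp, close to the limit, and is a member by a narrow margin. These 3 stood apart from the rest, since no other member reached 200.

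The fourth, chr15:87163383-87163613 (178.66, 231 bp), was the most remote of the 10. It lay 264242 bp from any TRb T3 midpoint and had 0 TRb T3 peaks and 2 other TRb PTU peaks within 100 kb. The fifth, chr11:78186138-78186696 (165.82), was the widest of the 10 at 559 bp and lay among 20 other TRb PTU and 6 TRb T3 peaks within 100 kb. The next were chr7:56548408-56548632 and chr9:121708693-121709013, both with a score of 160.12, and chr5:112683349-112683606 with 157.99. The last were chr2:31385643-31386018 (150.17) and chr4:126817055-126817314 (149.47). None of the 10 overlapped a GFP peak.

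Of these 10 sites, 6 had at least one other TRb PTU peak within 10 kb, and each of those neighbours was itself an isolated PTU-only site. The neighbours were much weaker than the site they flanked, with scores from 6.13 to 56.02. The highest-scored neighbour, chr5:112684508-112684792 (56.02), lay 1172 bp from its site, and the closest, chr9:121708253-121708588 (28.83), lay 432 bp away. The other 4 sites, on chromosomes 19, 9 (the second site), 6 and 4, had no TRb PTU peak within 10 kb.

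Across all isolated PTU-only sites, 5186 (53.1%, interval 52.1 to 54.0%) had no other TRb PTU peak within 10 kb. These had no other peak midpoint of either list that near and are called solitary. Another TRb PTU peak lay within 1 kb of 1845 sites (18.9%) and at 1 to 10 kb from 2744 (28.1%). Solitary sites had a median score of 12.38 (interval 12.0 to 12.83), against 12.47 (interval 11.95 to 12.89) with a neighbour within 1 kb and 13.26 (interval 12.89 to 13.71) with one at 1 to 10 kb. Among the 6783 isolated T3-only sites, 4133 (60.9%, interval 59.8 to 62.1%) were solitary in the same sense, a larger share. These had a median score of 14.95 (interval 14.22 to 15.02), on the scale of their own list. Isolated T3-only sites with a TRb T3 neighbour within 1 kb had 18.02 (interval 16.83 to 19.07).

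Isolated sites also came in groups. Joined wherever consecutive sites were at most 10 kb apart, they formed 7295 groups, of which 5571 were single sites and 1724 held at least 2. Only 54 groups held 5 or more, with 308 sites in all. The nearest other TRb PTU peak was itself isolated for 6000 of the 9775 sites (61.4%, interval 60.4 to 62.3%). The share was 98.0% where that peak lay within 1 kb, 85.6% at 1 to 10 kb and 35.5% for the solitary sites. The distance rule itself favours neighbours of the same kind, so nothing is read from these shares.

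The surroundings of isolated sites were poorer in peaks of both states, as the rule favours. Within 100 kb they had a median of 8 other TRb PTU peaks (quartiles 3 and 14) and 5 TRb T3 peaks (quartiles 2 and 10). TRb PTU peaks with no overlap and a TRb T3 midpoint at 1 to 10 kb had 14 and 11. Even so, 8767 isolated sites had a TRb T3 peak within 100 kb, and 1008 (10.3%) had none.

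Peaks found in both states near isolated PTU-only sites more often ranked higher in TRb PTU. Each list's scores were ranked over the 26670 pairs on chromosomes 1 to 19 in which a single TRb PTU and a single TRb T3 peak overlapped, and 51.1% of all pairs (interval 50.5 to 51.7%) ranked higher in TRb PTU. Of 8243 pairs with an isolated PTU-only site within 50 kb and no isolated T3-only site, 57.2% ranked higher in TRb PTU (interval 56.1 to 58.2%), and the median of the rank in TRb T3 minus that in TRb PTU was -3.78 percentile points. Of 4753 pairs near an isolated T3-only site alone, 43.6% did (interval 42.2 to 45.1%). With both kinds of site within 50 kb the share was 47.6% (1970 pairs), and with neither it was 50.5% (11704 pairs). Within 20 kb the shares were 59.2% next to isolated PTU-only sites and 41.5% next to isolated T3-only sites. These pairs come from the same 2 libraries as the rule and neighbouring pairs share their surroundings, so the shares are a description.

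**Figure D3:**
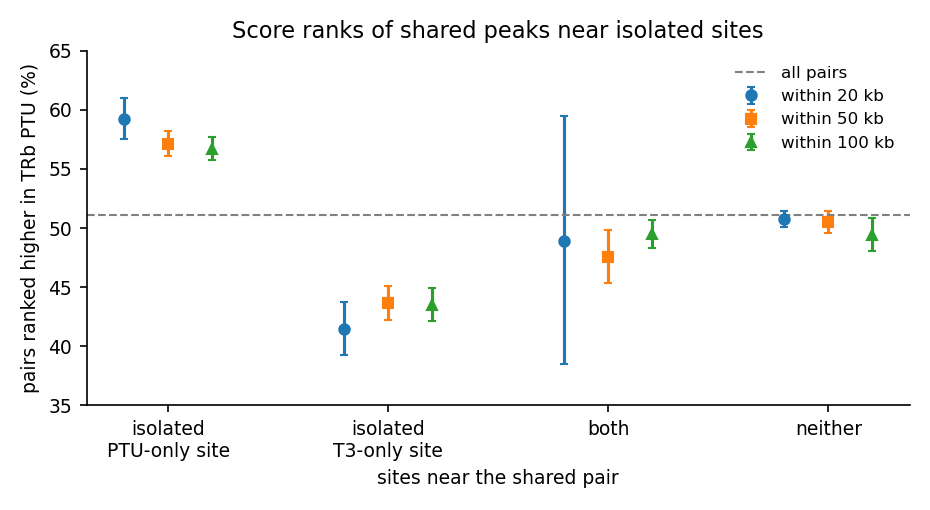
Percent of shared pairs ranked higher in TRb PTU than in TRb T3 (with exact 95% intervals), by which kind of isolated site lies within 20, 50 or 100 kb of the pair; the axis starts at 35% and the dashed line is the share over all pairs. Pairs near an isolated PTU-only site lie above the line at each distance (59.2, 57.2 and 56.7%) and pairs near an isolated T3-only site below it.

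Isolated sites occurred on every chromosome examined. Their share of TRb PTU peaks was 16.1% on chromosome 10 (419 of 2606, interval 14.7 to 17.5%) at the low end and 21.7% on chromosome 2 (845 of 3890, interval 20.4 to 23.1%) at the high end. Chromosome 2 was the only one whose interval lay above the common share, and chromosomes 6 (17.2%), 10 and 19 (17.1%) lay below it. With the TRb PTU list cut to the TRb T3 number, the shares on chromosomes 2 and 10 were 20.4 and 14.6%. With the 10000 highest-scored peaks of each list they were 33.5% (interval 30.0 to 37.0%) and 30.7% (interval 26.8 to 34.7%), around a common 33.1%. The 2 intervals overlapped in that setting only. With 20000 peaks of each list the shares were 27.8% (interval 25.6 to 30.2%) and 21.8% (interval 19.3 to 24.4%). With 30000 they were 23.3 and 18.2%. With 40000 they were 21.8% (interval 20.3 to 23.3%) and 15.4% (interval 13.9 to 17.1%). The median score of isolated sites ran from 11.71 on chromosome 16 to 14.66 on chromosome 19. The highest score on a chromosome ran from 97.63 on chromosome 13 to 246.97 on chromosome 19 and reached 100 on 18 of the 19.

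Relative to isolated T3-only sites, the numbers differed between chromosomes. On chromosome 11 there were 780 isolated PTU-only and 335 isolated T3-only sites (ratio 2.33, interval 2.05 to 2.65). Chromosome 11 was also the densest with 6.41 isolated PTU-only sites per Mb, but it was the densest in all TRb PTU peaks too (33.7 per Mb). The interval of its PTU-only share included the common share, while its T3-only share of 10.8% was the lowest of any chromosome examined. On chromosome 13 there were 396 and 442 (0.896, interval 0.780 to 1.03), the lone chromosome with fewer isolated PTU-only sites. Over windows of 500 kb, the numbers of the 2 kinds of site had a Spearman correlation of 0.04 (3914 windows with a peak, which share the 2 libraries). Of 2854 windows with an isolated PTU-only site, 1997 (70.0%) also held an isolated T3-only site. The rule sets both numbers and peak density was not accounted for, so nothing is read from the correlation.

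**Figure D4:**
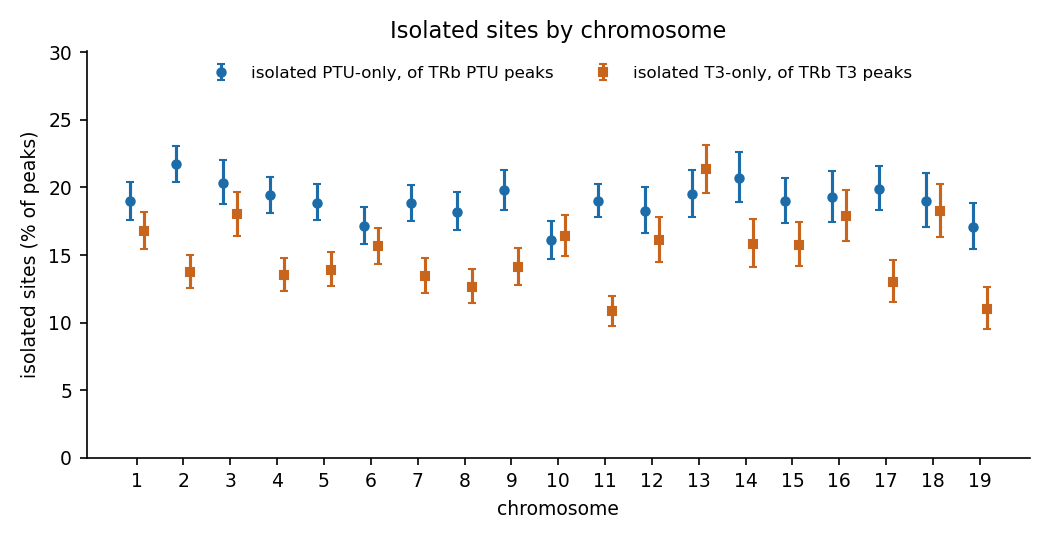
Isolated sites as a percent of the peaks of their list on each of chromosomes 1 to 19, with exact 95% intervals, for TRb PTU (blue circles) and TRb T3 (orange squares). The PTU-only share stays between 16.1 and 21.7%, while the T3-only share runs from 10.8% on chromosome 11 to 21.3% on chromosome 13.

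Between consecutive TRb T3 midpoints there were 15566 stretches of over 20 kb, long enough to hold an isolated site, and 5172 of them (33.2%) did. These had a median length of 92104 bp. Counting also chromosome ends, 2863 of 5185 stretches (55.2%) held a single isolated site and 273 held 5 or more, with 1737 sites (17.8% of all). Few stretches therefore held many sites, and the fullest are described next.

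The fullest stretches between TRb T3 peaks had 16 isolated sites each, on chromosomes 4 and 6, and neither held another TRb PTU peak. On chromosome 4 the sites ran from 88402997 to 88452086, in a stretch of 149130 bp without a TRb T3 peak, and formed a ladder. Of the 15 spacings between consecutive midpoints, 13 lay between 2861 and 2987 bp. The last 12 sites, from 88419633 to 88452086, were evenly spaced without a break (2861 to 2973 bp). Their scores ran from 31.68 to 63.95 and their widths from 220 to 316 bp. All 12 scored above the upper quartile of isolated sites (21.22). The highest-scored was chr4:88425476-88425742 (63.95), and the weakest of the 16 was the first, chr4:88402997-88403130 (4.77). There was no GFP peak in the stretch. In a search made after these values had been seen, for 5 or more consecutive peaks with spacings of 1 to 20 kb that differed by at most 5%, this was the 1 run in the TRb PTU list, and the TRb T3 list had 0. Whether the sites of the ladder are separate places of binding or copies of a repeated or duplicated sequence was not tested, so they may not be independent sites.

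On chromosome 6 the 16 sites lay between 47544124 and 47738625, in a stretch of 250353 bp, and were weaker, with scores from 3.18 to 19.41 (median 10.39). Their spacing was also partly regular, with 8 of 15 spacings between 4251 and 4509 bp. The stretch held 2 GFP peaks, and each was overlapped by an isolated site, chr6:47689924-47690158 (score 10.24) and chr6:47713298-47713550 (17.54). Signal at these places was thus also called in a liver without tagged TRβ1, and its part in the other sites of the stretch was not tested.

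The next stretch, on chromosome 2, held 12 isolated sites among 13 TRb PTU peaks in 239718 bp. These sites had no regular spacing (786 to 67641 bp). Their scores were uneven, from 7.06 to 108.53, with chr2:172666505-172666978 (108.53, 474 bp) the highest and chr2:172612782-172613001 (77.16) next. After it came 6 stretches with 11 isolated sites each, on chromosomes 2, 4, 5, 11 (a pair of them) and 15, 126686 to 687475 bp long. The highest score in each of these ran from 26.95 to 92.72.

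More isolated sites lay before the first TRb T3 peak of chromosome 14 than in any of these stretches, a place named after its values were seen. The first TRb T3 midpoint there was at 8641320, and 24 TRb PTU peaks came before it, all isolated, from chr14:3333106-3333248 onward. On the other chromosomes at most 7 TRb PTU peaks came before the first TRb T3 midpoint. The 24 sites were narrow (median 151.5 bp, 23 of them under 210 bp) with scores from 9.40 to 38.02 (median 17.07). They were far apart, with a median spacing of 152138 bp, and 22 of them had no other TRb PTU peak within 10 kb. The score 9.40 occurred at 4 of them. Of the 42 isolated sites more than 1 Mb from a TRb T3 midpoint, 18 belonged to this region. The GFP list had 0 peaks there. Whether this region holds repeated or duplicated sequence was not tested either.

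**Figure D5:**
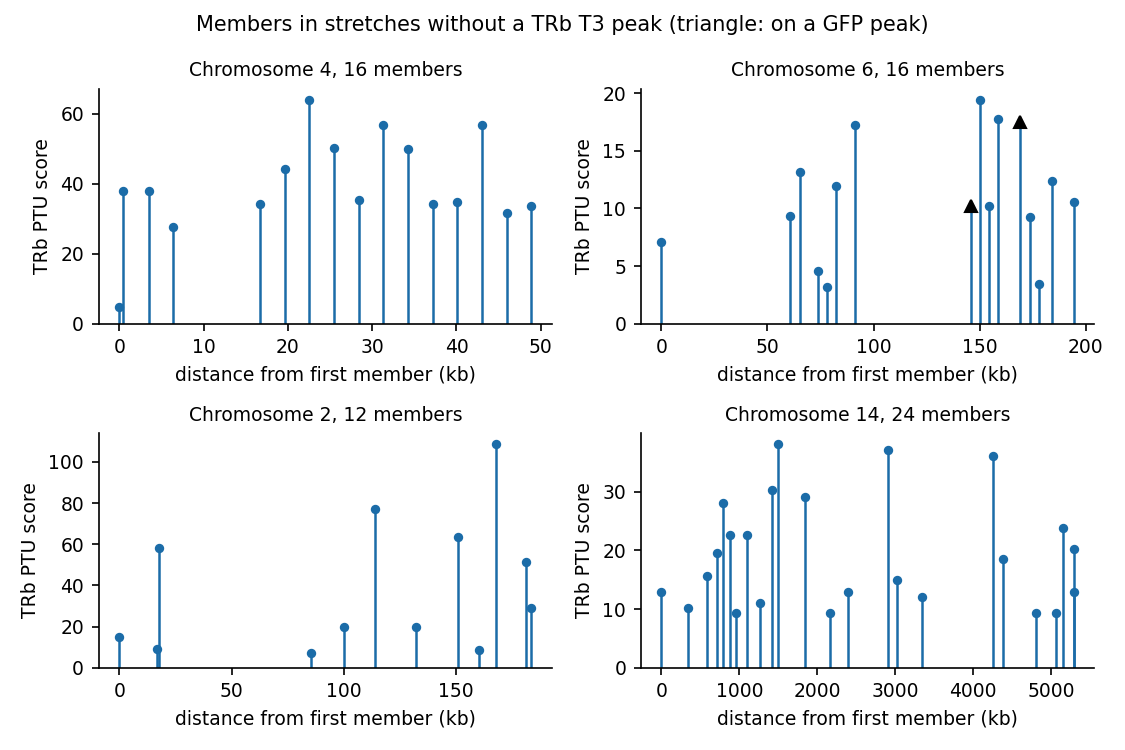
TRb PTU score of each isolated site (vertical axis, each panel on its own scale) against its distance from the first site (kb), for the stretches with the most sites on chromosomes 4, 6 and 2 and for the start of chromosome 14; triangles mark sites on a GFP peak. The chromosome 4 sites stand at even steps with scores mostly above 30, and the chromosome 2 sites are uneven in spacing and score.

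Few isolated sites coincided with signal from livers without tagged receptor. A GFP PTU peak overlapped 18 of the 9775 sites (0.184%, interval 0.109 to 0.291%), against 64 of the other 41522 TRb PTU peaks (0.154%, interval 0.119 to 0.197%). Their scores ran from 4.94 to 91.46 (median 20.77), and the highest was chr4:150431907-150432271. Among isolated T3-only sites 1 of 6783 met a GFP peak (0.0147%, interval 0.000373 to 0.0821%), against 45 of the other 38623 TRb T3 peaks (0.117%, interval 0.0850 to 0.156%). The GFP animals received saline, like the TRb PTU animals, and no GFP sample with T3 is among the samples. Seen from the control, 19 of the 103 GFP peaks on chromosomes 1 to 19 were overlapped by an isolated PTU-only site. With a control list of only 107 peaks, these shares do not measure how much background there is among weak peaks.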

How the data were processed

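Peaks were compared between 1 TRb PTU, 1 TRb T3 and 1 GFP PTU library. The deposited lists give each peak's position and a score, the value of the authors' peak caller, whose statistic the files do not name. Bowtie, SAMtools, MACS2 and build mm9 are named in the submitters' processing notes; for settings and the calling control, nothing is given in the sources used here. Peak names were consecutive in all 3 lists and no 2 peaks of a list overlapped. Scores were compared only within a list, overlap meant at least 1 bp, and positions are printed 1-based. Groups came from sample titles. Inputs were not analysed here.

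The members and lists were chosen with earlier results of these data known. The peaks named are the 10 highest-scored members, the 5 nearest on each side of 10 kb, the fullest stretches and the highest-scored member per chromosome by range; the others were chosen after their values were seen. Gene location, gene lists and motifs were planned and not run for lack of an mm9 reference here. The distance code, tested on simulated lists made from 45406 TRb T3 positions, found 500, 2000 and 5000 of 500, 2000 and 5000 isolated sites made. Python 3.11.15, numpy 2.4.6, pandas 2.3.3, scipy 1.17.1 and matplotlib 3.10.9 were used. Other distances, score filters, equal numbers, all sequences and removal of GFP sites were tried.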

Additional observations from a re-analysis of the deposited data

How the results depend on the processing

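No paired analysis was possible because there was a single library per group. Values in brackets are those reported. The number of isolated PTU-only sites (9775) was 6121 with a distance of 20 kb and 2442 with 50 kb, 2836 with TRb PTU peaks at or above the median score and 19341 with such a filter on TRb T3. With the 10000, 20000 and 30000 highest-scored peaks of each list, chosen after seeing the data as was 40000, it was 3313, 5137 and 6391. The ratio to isolated T3-only sites (1.44) was 1.36 with 20 kb, 1.09 with 50 kb, 1.05 with TRb PTU cut to the TRb T3 number and 1.02, 1.04, 1.04 and 1.04 with 10000, 20000, 30000 and 40000 peaks. The median score (12.78) was 12.14 with 50 kb, 14.03 with the filter on TRb T3 and 14.81 with TRb PTU cut. The median width (182 bp) was 179, 190 and 188 bp under the same settings. The share whose nearest other TRb PTU peak was isolated (61.4%) was 60.3% with 5 kb. The share with no other TRb PTU peak within 10 kb (53.1%) was 41.9% with 5 kb, 57.6% with 20 kb and 64.5% with 50 kb. The isolated share of the highest TRb PTU decile (2.48%) and the chromosome shares also moved with the distance, the filter on TRb T3 and the number of peaks. A gap of over 10 kb between edges, all sequences, removal of GFP sites and leaving out the start of chromosome 14 moved none of those of these values that were recomputed under them out of their intervals, or the number by over 1.5 times. Beyond filters that remove peaks by construction, the cause of these shifts was not tested. Unknown depth limits every comparison of numbers. Alternatives for gene location and motifs were not run.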

Other observations

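Of the 5 widest isolated PTU-only sites, 2 stood in 1 group on chromosome 17, chosen after its values were seen. It held 7 sites in 5698 bp (39980064 to 39985761), among them the widest and second widest members, chr17:39982898-39984289 (1392 bp, score 10.65) and chr17:39984450-39985761 (1312 bp, score 24.61). These lay 918258 and 916746 bp from the nearest TRb T3 midpoint. No GFP peak lay in the group. Whether the group is repeated or duplicated sequence was not tested.

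The windows of 500 kb with the most isolated PTU-only sites lay on chromosome 4 from 138500001 to 139000000 and on chromosome 5 from 111500001 to 112000000, with 23 each among 52 and 30 TRb PTU peaks, and with 25 and 4 TRb T3 peaks. Neither had an isolated T3-only site, where 14.9% of all TRb T3 peaks on chromosomes 1 to 19 were isolated. The windows were picked for their isolated PTU-only sites, so nothing is read from this. The peak-dense windows on chromosome 10 from 79500001 to 81000000 held 306 TRb PTU and 164 TRb T3 peaks. Of the former 24 were isolated, where the share over all TRb PTU peaks on chromosomes 1 to 19 was 19.1%. Of the latter 0 were isolated in each window. The distance rule leaves little room for isolated sites of either state where peaks are dense, so the counts are a description.

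By the same distance, 185 of 607 TRb PTU peaks on chromosome X, which is outside the rule, were isolated (30.5%, interval 26.8 to 34.3%). The same share of TRb T3 peaks and the peak density of chromosome X were not set beside it. The share is therefore not read as particular to PTU. With all sequences counted, the ratio of isolated PTU-only to isolated T3-only sites was 1.43, against 1.44 as reported. The most frequent score among members was 10.24, shared by 241 of them and by 452 other TRb PTU peaks.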
